A study of Mus musculus with 11 samples.

Results

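Cytochrome P450 enzymes of families 1, 2 and 3 were measured in mouse liver. They were taken as every gene whose symbol on the array starts with Cyp1, Cyp2 or Cyp3, then a subfamily letter and a number, and whose probe was detected (detection p-value under 0.05) on 2 arrays or more. Of 50 such symbols on the array, 37 met this rule, among 15469 genes tested, and they fall into 14 subfamilies. The other 13 symbols were not tested: Cyp1a1, Cyp2b19, Cyp2c68, Cyp2d34, Cyp2j5, Cyp2j6, Cyp2j11, Cyp2j12, Cyp2j13, Cyp3a16, Cyp3a44 and Cyp3a57 had no probe detected on any array, and Cyp2c40 was detected on 1 array. Of the 37 members, 32 were detected on all 11 arrays. The exceptions were Cyp2c65 and Cyp2r1 (9 arrays each), Cyp2d12 (10), Cyp2b13 (7) and Cyp2s1 (6).

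The livers came from male C57BL/6J mice that received an adenovirus carrying FXR (Nr1h4), the nuclear receptor for bile acids, and 1 week later the synthetic FXR agonist GW4064 at 30 mg/kg in corn oil overnight. Obese mice expressed FXR-K217R (3 arrays), in which arginine takes the place of a lysine that can be acetylated, or FXR-WT (3 arrays). Lean mice expressed FXR-K217Q (3 arrays), in which glutamine resembles the acetylated lysine, or FXR-WT (2 arrays). Every array is labelled with an age of 8 weeks, and the titles carry the letters HFD for obese and ND for lean mice without spelling them out. All 4 groups thus carried a virus and the agonist, and no group without either was analysed here. The labels do not say that the mouse's own FXR was removed, nor whether each replicate is another animal, and the p-values below describe the spread among these arrays, which may be technical.

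These enzymes sit in the endoplasmic reticulum of hepatocytes, where each binds a haem group, takes electrons from the reductase Por and adds oxygen to drugs, pollutants, steroids, fatty acids and bile acids. Many are induced through ligand-sensing receptors: the aryl hydrocarbon receptor acts on family 1, and CAR (Nr1i3) and PXR (Nr1i2) act on members of Cyp2b, Cyp2c and Cyp3a. Some mouse members also differ between the sexes under the control of growth hormone pulses. Values are log2 normalized probe intensities, and changes are given as 1 group mean minus another on that log2 scale. Probes of different genes bind with different strength, so the level of one gene is not set against that of another.

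Nr1h4 itself measured 12.53, 12.35 and 12.38 in obese FXR-K217R livers, 11.98, 12.09 and 12.30 in obese FXR-WT livers, 12.34, 11.99 and 12.27 in lean FXR-K217Q livers, and 12.23 and 12.37 in lean FXR-WT livers. Its groups overlapped in each comparison but the obese one, and no comparison passed 5% FDR for it. Of the 10 hepatocyte markers, 9 were tested, and their summed normalized intensity was 189701 to 194393 in obese FXR-K217R, 188542 to 195602 in obese FXR-WT, 186528 to 195758 in lean FXR-K217Q and 189176 to 191837 in lean FXR-WT livers. The brightest probes make up most of that sum, so it says little of the dimmer markers: Fgb and Alb had changes of -0.93 and -0.45 with FXR-K217R (adjusted p = 0.993 each by limma).

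The arrays within a group did not give the same picture of these enzymes. Lean FXR-K217Q replicate 3 was the lowest of its 3 arrays for 24 of the 37 members (64.9%), against 37.1% of all genes tested. For 12 members (2.34% of all genes) it lay at least 1 below the mean of the other 2 arrays: Cyp1a2, Cyp2a4, Cyp2a5, Cyp2b9, Cyp2b13, Cyp2b23, Cyp2c29, Cyp2c55, Cyp2d12, Cyp2g1, Cyp2j9 and Cyp3a11. Obese FXR-WT replicate 1 was the lowest of its group for 24 members too (64.9%, against 38% of all genes), and 8 members lay at least 1 below (1.38% of all genes): Cyp1a2, Cyp2a4, Cyp2a5, Cyp2b9, Cyp2b13, Cyp2b23, Cyp2d12 and Cyp2g1. All 8 are also among the 12 of the lean array. Cyp2b10 went the other way on the obese array, at 2.83 above the mean of the other 2. Obese FXR-K217R replicate 1 was lowest for 25 members (67.6%, against 33.7% of all genes), but none of them lay at least 1 below the other 2 arrays.

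On both of the arrays that stood apart, Dbp, a clock-driven transcription factor known to activate Cyp2a4 and Cyp2a5, was the lowest of its group. Obese FXR-WT livers had Dbp levels of 10.74, 12.67 and 12.88, with replicate 1 the low one, and lean FXR-K217Q livers had 12.87, 12.85 and 10.45, with replicate 3 the low one. In the other groups Dbp measured 13.09, 12.71 and 13.27 (obese FXR-K217R) and 11.32 and 11.71 (lean FXR-WT). Arntl, the clock activator BMAL1, was highest on the same arrays, at 7.49 (obese FXR-WT replicate 1) and 8.09 (lean FXR-K217Q replicate 3), and it measured 7.62 and 7.63 in lean FXR-WT livers. Both clock genes were read after their values were known, and their part in the results below was not tested.

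**Figure D1:**
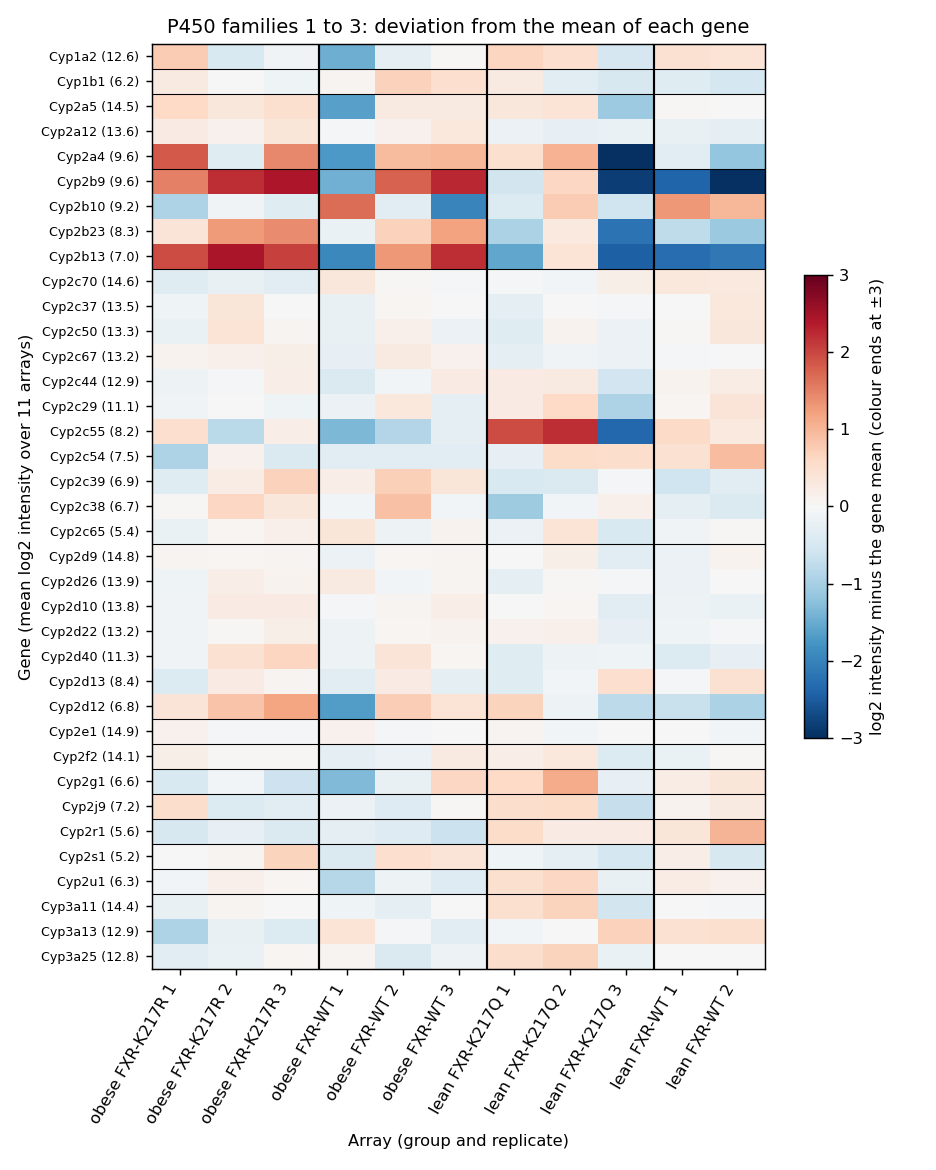
Log2 level of each of the 37 members on each of the 11 arrays, as its difference from that member's mean over all arrays, with the members by subfamily down the page and the arrays by group across it (obese FXR-K217R, obese FXR-WT, lean FXR-K217Q, lean FXR-WT). Obese FXR-WT replicate 1 and lean FXR-K217Q replicate 3 are low for the Cyp2a4, Cyp2a5, Cyp2b9 and Cyp2b13 rows (colours end at a difference of 3 either way), while the Cyp2e1 row is nearly flat.

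The members varied more between arrays than most genes did. Their range over the 11 arrays had a median of 1.22, against 0.75 over all genes tested. Split by the brightness of the probe, the median range was 0.71 for the 17 members with a mean of at least 12, against 0.46 for the 1149 genes at that brightness, and 1.57 for the 12 members under 8, against 0.87 for 8268 genes. The 8 members between 8 and 12 had a median range of 3.65, against 0.58 for 6052 genes. They are Cyp2a4, Cyp2b9, Cyp2b10, Cyp2b23, Cyp2c29, Cyp2c55, Cyp2d13 and Cyp2d40. The median SD within groups was 0.35 for the members and 0.21 for all genes. Cyp2b9 had the widest range of any member, at 6.01, and Cyp2e1 the narrowest, at 0.23.

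**Figure D2:**
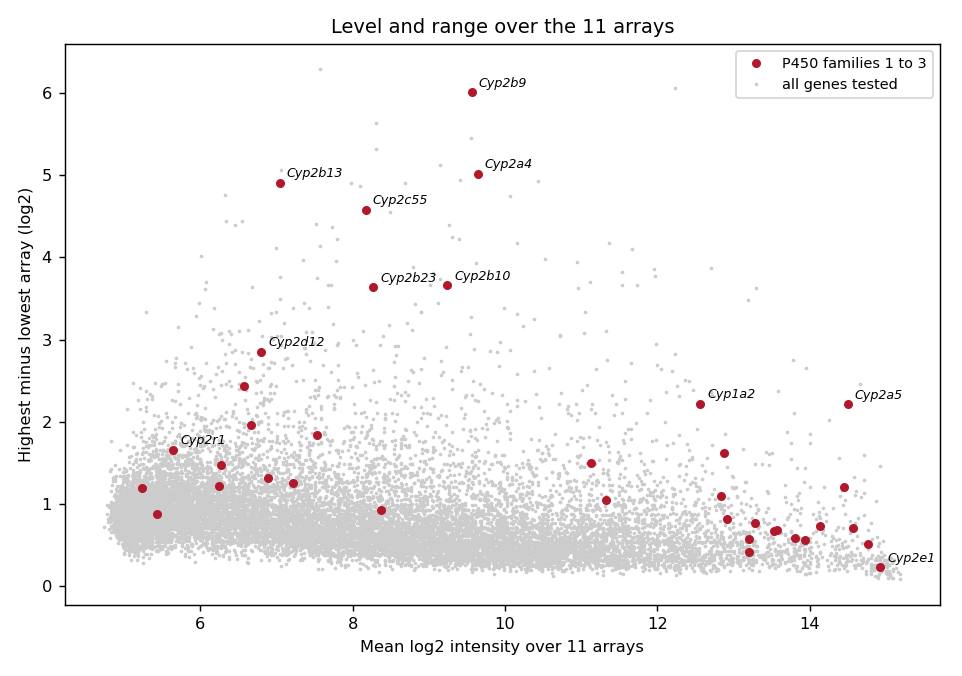
Range of the log2 level over the 11 arrays (vertical axis) against the mean log2 level of the probe (horizontal axis), with all genes tested in grey and the 37 members marked. Cyp2b9 (6.01), Cyp2a4 (5.02), Cyp2b13 (4.91) and Cyp2c55 (4.58) lie highest among the members, and Cyp2e1 (0.23) lies lowest.

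The comparison of lean FXR-K217Q with lean FXR-WT livers asks what the acetylation mimic does without obesity. No member passed 5% FDR (0 of 37; percent of all genes called, 0), and at an unadjusted p under 0.05 the count was also 0 members, against 7.2% of all genes. The median change of the members was -0.02, against -0.00 over all genes, with 18 positive (48.6%, against 49.4% of all genes) and 19 negative. The groups did not overlap for 3 members (8.11%, against 22.3% of all genes), and all 3 were lower in FXR-K217Q livers: Cyp2b10, Cyp2c67 and Cyp2c70. The second probe of Cyp2c67 changed in the other direction.

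Among obese livers, FXR-K217R was set against FXR-WT to ask what the form that cannot be acetylated at K217 does. Again 0 members passed 5% FDR, where 0.0388% of all genes did, and 1 member, Cyp2c70, had an unadjusted p under 0.05 (2.7%, against 4.41% of all genes). The median change was 0.09, against -0.00 over all genes, and 25 of 37 members were positive (67.6%, against 48.8% of all genes). Obese FXR-WT replicate 1, which was low for 24 members, is 1 of the 3 FXR-WT arrays in these differences. Groups did not overlap for 3 members (8.11%, against 9.85% of all genes): Cyp2a5 and Cyp2u1 were higher and Cyp2c70 lower in FXR-K217R livers. In this same comparison all 10 tested neutrophil markers, of 12 listed, had negative changes with a median of -2.44, and 6 of them fell. Their summed normalized intensity was 1675 to 2904 in obese FXR-K217R and 10762 to 14497 in obese FXR-WT livers, and their part in the members' values was not tested.

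Obesity was read between obese FXR-WT and lean FXR-WT livers, which carry the same construct. Here 1 member, Cyp2r1, fell (2.7% of members), where 1.2% of all genes passed in either direction. At an unadjusted p under 0.05 there were 9 members (24.3%, against 13.5% of all genes), 6 higher and 3 lower in obese livers. A change of at least 1 in size was seen in 7 members (18.9%), against 2.12% of all genes, and 16 members did not overlap between the groups (43.2%, against 33%). The median change was 0.01 and 19 members were positive (51.4%, against 49.9% of all genes), so these larger differences ran both ways. Neutrophil markers were higher here, with 10 of 10 changes positive, a median of 1.53 and 4 that rose, and their summed intensity was 10762 to 14497 in obese FXR-WT and 4079 to 4459 in lean FXR-WT livers.

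The difference between the FXR-K217R change in obese and the FXR-K217Q change in lean livers had 0 members past 5% FDR (0% of all genes) and 0 at an unadjusted p under 0.05 (4.71% of all genes). Construct and body state change together in it, so it does not separate the 2. Its smallest p among the members was that of Cyp1b1, with a difference of -0.65 (SE 0.32, unadjusted p = 0.0701, adjusted p = 1 by limma). A test for any difference among the 4 groups called 1 member, Cyp2r1 (adjusted p = 0.0311 by limma's moderated F test), where 1.31% of all genes were called.

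A further comparison, added after the values were seen, set the mean of both obese groups against the mean of both lean groups. It mixes the constructs, and it shares its arrays with the comparisons above. In it 6 members passed 5% FDR (16.2%, where 4.14% of all genes did): Cyp2a12, Cyp2b9, Cyp2b13 and Cyp2b23 rose and Cyp2c54 and Cyp2r1 fell. The fall of Cyp2r1 stayed past 5% when any 1 of the 11 arrays was left out (adjusted p = 0.003 to 0.0224 by limma). The other 5 calls were each lost on leaving out most single arrays: Cyp2a12 and Cyp2b9 remained past 5% in 4 of the 11 cases, Cyp2b23 in 3, and Cyp2b13 and Cyp2c54 in 2. Without obese FXR-K217R replicate 3, obese FXR-WT replicate 2, obese FXR-WT replicate 3, lean FXR-WT replicate 1 or lean FXR-WT replicate 2 the count was 1 member each time, Cyp2r1.

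**Figure D3:**
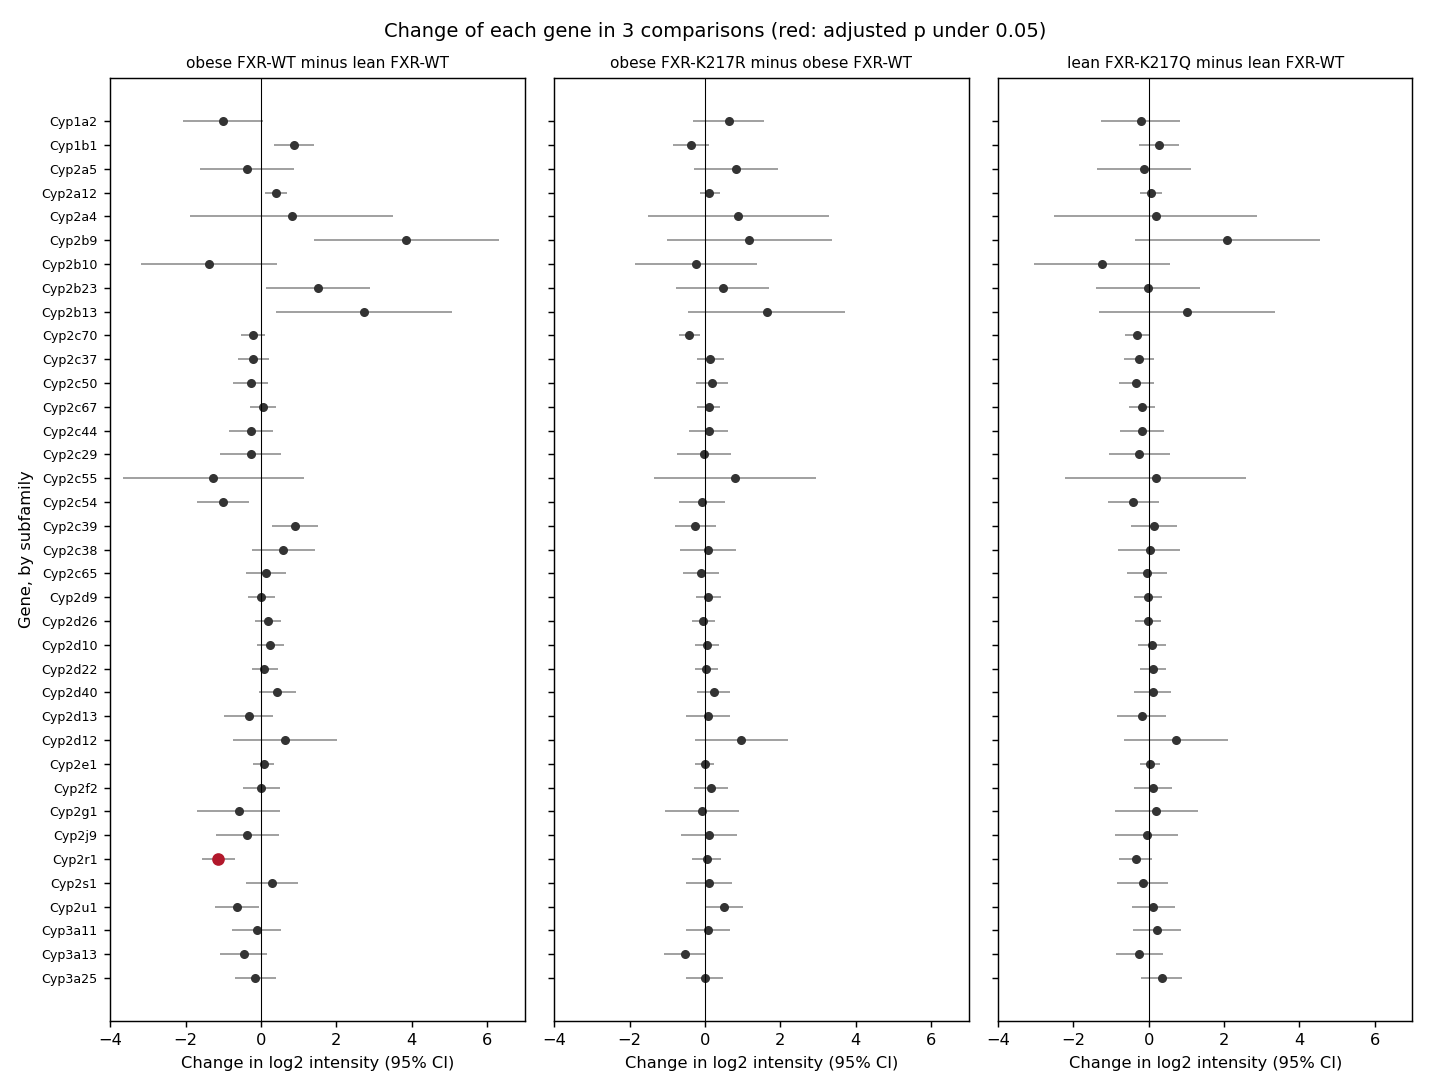
Change of each member with its 95% confidence interval (horizontal axis, log2 scale) in 3 comparisons, with obese FXR-WT minus lean FXR-WT on the left, FXR-K217R minus FXR-WT in obese livers in the middle and FXR-K217Q minus FXR-WT in lean livers on the right, and with members by subfamily down the page. Red marks a member past 5% FDR, and only Cyp2r1 in the comparison of obese with lean FXR-WT livers is red. The intervals of Cyp2b9, Cyp2b13, Cyp2a4 and Cyp2c55 are wide.

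Subfamily Cyp2b, on chromosome 7, held the largest changes with obesity. Its members oxidise steroids and drugs: Cyp2b10 is the classical target of CAR, and Cyp2b9 and Cyp2b13 are normally expressed more in female than in male mouse liver. Cyp2b9 measured 11.06, 11.77 and 11.98 in obese FXR-K217R livers, 8.12, 11.32 and 11.83 in obese FXR-WT livers, 9.01, 10.19 and 6.73 in lean FXR-K217Q livers, and 7.16 and 5.96 in lean FXR-WT livers. All 3 obese FXR-WT arrays were above both lean FXR-WT arrays, but replicate 1 by less than 1, and the lean FXR-K217Q arrays reached from within the span of the lean FXR-WT pair to well above it. The change with obesity was 3.86 (SE 1.11, adjusted p = 0.147 by limma), a 14.5-fold higher mean in obese FXR-WT livers that did not pass. FXR-K217Q differed from FXR-WT by 2.08 (SE 1.11, adjusted p = 0.745 by limma) in lean livers, and FXR-K217R by 1.18 (SE 0.99, adjusted p = 0.993 by limma) in obese livers.

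Cyp2b13 measured 9.01, 9.50 and 9.09 in obese FXR-K217R livers, 5.10, 8.34 and 9.25 in obese FXR-WT livers, 5.48, 7.46 and 4.59 in lean FXR-K217Q livers, and 4.77 and 4.89 in lean FXR-WT livers. It was detected on 3 of 3, 2 of 3, 2 of 3 and 0 of 2 arrays of these groups. Since no lean FXR-WT array detected it, its folds were taken against the limit of detection there. That limit is the mean, over the lean FXR-WT arrays, of the dimmest detected value or the probe's own value where that was higher. The mean of obese FXR-WT livers was 5.19-fold above it (change 2.74, adjusted p = 0.292 by limma). For lean FXR-K217Q livers the fold was 1.57 (change 1.01, adjusted p = 0.906 by limma). Obese FXR-WT and lean FXR-K217Q livers each include an array that did not detect the gene. Those arrays kept their measured values, so neither fold is a strict lower bound. Without obese FXR-WT replicate 1, Cyp2b9 and Cyp2b13 passed in the comparison of obese with lean FXR-WT livers, with changes of 5.01 and 3.97 (adjusted p = 0.0378 and 0.039 by limma). That array had been singled out for being low for these very genes, and it was the 1 of 11 arrays whose omission gave a call. Leaving out the others gave changes as low as 3.16 for Cyp2b9 and 1.89 for Cyp2b13, with adjusted p-values up to 0.642 and 0.693 by limma.

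The 250 bases before the annotated start of Cyp2b9 and Cyp2b13 are shown because these genes held the largest changes, and the windows are all but the same. They come from RefSeq on build GRCm38.p6, at chr7:26173159-26173408 (Cyp2b9) and chr7:26061245-26061494 (Cyp2b13), both on the plus strand and printed 5′ to 3′, with capitals at the bases that differ.
Cyp2b9: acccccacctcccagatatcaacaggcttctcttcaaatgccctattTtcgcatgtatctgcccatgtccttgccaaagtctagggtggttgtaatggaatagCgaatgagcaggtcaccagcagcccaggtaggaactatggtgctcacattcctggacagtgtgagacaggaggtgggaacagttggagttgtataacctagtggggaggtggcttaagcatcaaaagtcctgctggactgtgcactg
Cyp2b13: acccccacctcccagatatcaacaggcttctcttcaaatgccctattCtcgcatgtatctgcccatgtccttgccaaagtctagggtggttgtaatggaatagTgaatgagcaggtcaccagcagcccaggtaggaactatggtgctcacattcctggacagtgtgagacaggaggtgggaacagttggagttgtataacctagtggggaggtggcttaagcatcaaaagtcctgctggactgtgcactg
They share 248 of 250 bases (99.2%), and the differences are T48C and C104T, with the Cyp2b9 base first and positions counted from 1 at the first base printed. Between Cyp2b10 and Cyp2b9 the share was 71.0% over an alignment of 262 positions. The probe sequences were not used here, so whether a probe for one of these genes also binds the transcript of the other is uncertain.

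Cyp2b23 measured 8.66, 9.55 and 9.69 in obese FXR-K217R livers, 8.06, 8.96 and 9.47 in obese FXR-WT livers, 7.32, 8.56 and 6.05 in lean FXR-K217Q livers, and 7.50 and 7.16 in lean FXR-WT livers. All obese FXR-WT arrays lay above both lean FXR-WT arrays (change 1.50, SE 0.63, adjusted p = 0.327 by limma), while the lean groups overlapped. Cyp2b10 had the opposite order, with 8.31, 9.14 and 8.87 in obese FXR-K217R livers, 10.91, 8.90 and 7.25 in obese FXR-WT livers, 8.82, 10.01 and 8.65 in lean FXR-K217Q livers, and 10.55 and 10.24 in lean FXR-WT livers. Its obese FXR-WT arrays spread over more than the whole range of the other groups, and the lean FXR-K217Q arrays all lay below the lean FXR-WT ones. The changes of Cyp2b10 were -1.38 (SE 0.81, adjusted p = 0.503 by limma) with obesity and -1.24 (SE 0.81, adjusted p = 0.811 by limma) with FXR-K217Q, neither of which passed.

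**Figure D4:**
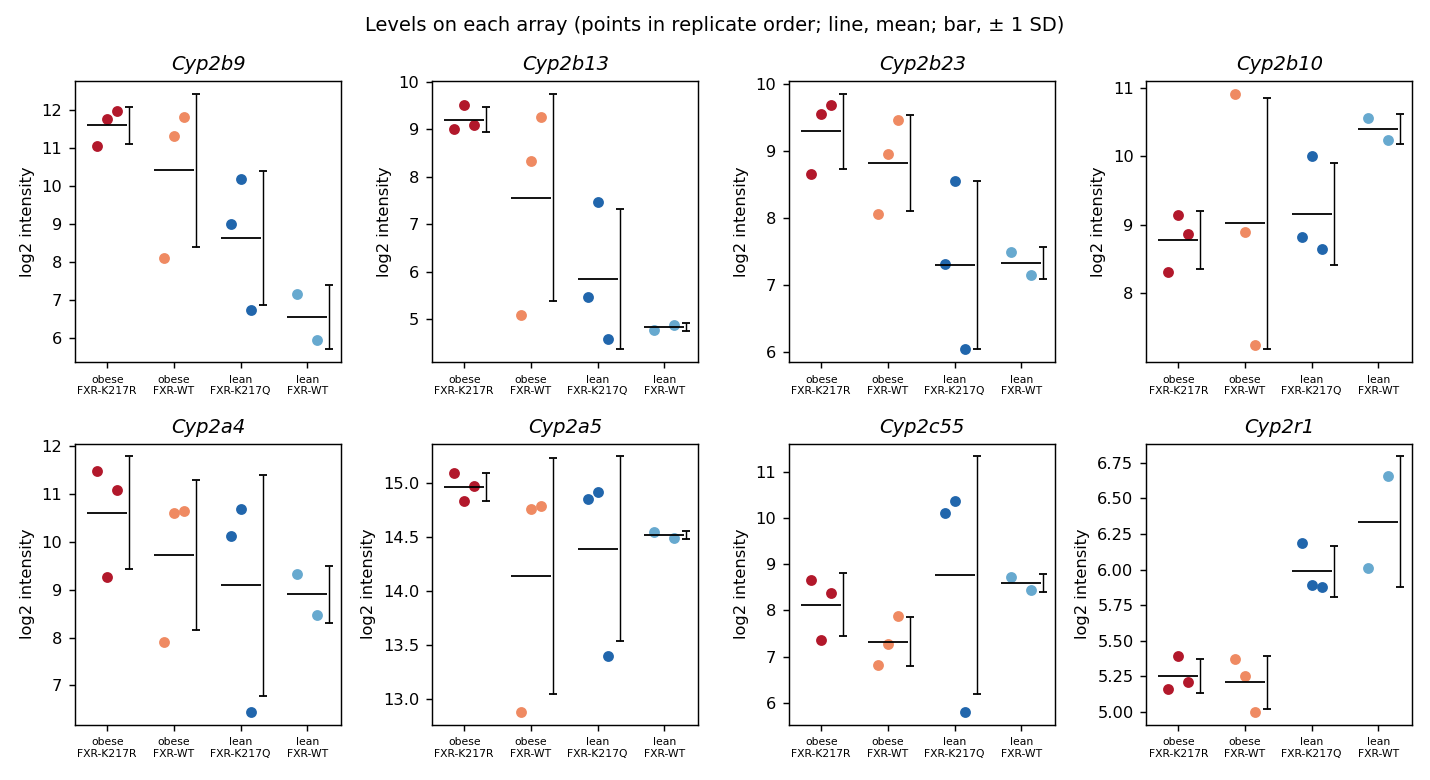
Log2 level on every array, 1 point an array with a line at each group mean and a bar of 1 SD either way, for Cyp2b9, Cyp2b13, Cyp2b23, Cyp2b10, Cyp2a4, Cyp2a5, Cyp2c55 and Cyp2r1, with groups from left to right as obese FXR-K217R, obese FXR-WT, lean FXR-K217Q and lean FXR-WT. Cyp2r1 is lower on all 6 obese arrays (5.0 to 5.39) than on all 5 lean arrays (5.88 to 6.66), while for Cyp2a4, Cyp2a5, Cyp2b9 and Cyp2b13 obese FXR-WT replicate 1 and lean FXR-K217Q replicate 3 lie lowest in their groups.

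Cyp2r1, a vitamin D hydroxylase, was the member that passed. It measured 5.16, 5.39 and 5.21 in obese FXR-K217R livers, 5.37, 5.25 and 5.0 in obese FXR-WT livers, 6.19, 5.89 and 5.88 in lean FXR-K217Q livers, and 6.01 and 6.66 in lean FXR-WT livers. No obese array reached any lean array. The change between obese and lean FXR-WT livers was -1.13 (SE 0.20, adjusted p = 0.0267 by limma), a 2.18-fold lower mean in obese livers. Between constructs the changes were 0.05 for FXR-K217R in obese livers and -0.35 (SE 0.20, adjusted p = 0.767 by limma) for FXR-K217Q in lean livers. Leaving out 1 lean FXR-WT array moved the FXR-K217Q change to -0.67 (replicate 1) or -0.02 (replicate 2). The probe is dim: it was detected on 4 of 6 obese and 5 of 5 lean arrays, and the dimmest detected value of an array was 5.16 to 5.32. The fall was not past 5% without obese FXR-WT replicate 2 (adjusted p = 0.0831), obese FXR-WT replicate 3 (adjusted p = 0.0915) or lean FXR-WT replicate 2 (change -0.80, adjusted p = 0.324), and it was past 5% without any other single array. With no background correction its change was -0.36 (adjusted p = 0.061 by limma).

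Subfamily Cyp2a, also on chromosome 7, paired a steady member with 2 unsteady ones. Cyp2a12, a steroid and bile acid hydroxylase, measured 13.82, 13.71 and 13.94 in obese FXR-K217R livers, 13.53, 13.69 and 13.89 in obese FXR-WT livers, 13.40, 13.32 and 13.36 in lean FXR-K217Q livers, and 13.34 and 13.27 in lean FXR-WT livers. Every obese array was above every lean array, which held for 2 of 37 members, the other being Cyp2r1 in the opposite direction, and for 4.48% of all genes. The change of Cyp2a12 between obese and lean FXR-WT livers was small, at 0.40 (SE 0.13, adjusted p = 0.226 by limma).

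Cyp2a5, the coumarin hydroxylase, measured 15.09, 14.83 and 14.97 in obese FXR-K217R livers, 12.88, 14.76 and 14.78 in obese FXR-WT livers, 14.85, 14.91 and 13.40 in lean FXR-K217Q livers, and 14.54 and 14.49 in lean FXR-WT livers. Cyp2a4, a steroid hydroxylase that is normally higher in females, measured 11.47, 9.27 and 11.08 in obese FXR-K217R livers, 7.91, 10.60 and 10.64 in obese FXR-WT livers, 10.13, 10.69 and 6.45 in lean FXR-K217Q livers, and 9.32 and 8.48 in lean FXR-WT livers. In both genes obese FXR-WT replicate 1 and lean FXR-K217Q replicate 3 were the lowest arrays of all, at -1.89 and -1.48 from the rest of the group for Cyp2a5 and -2.71 and -3.96 for Cyp2a4. No comparison passed for either gene: the change with FXR-K217R was 0.82 (SE 0.50) for Cyp2a5 and 0.89 (SE 1.09) for Cyp2a4, both with an adjusted p of 0.993 by limma. Cyp2a5 has 5 probes past the filter, and their changes with FXR-K217R were 0.69 to 1.39, while with FXR-K217Q the brightest probe gave -0.13 and the other 4 gave 0.51 to 0.73. The brightest probe reached 87.7% of the highest raw intensity of an array, so its range at the top may be limited.

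The windows before Cyp2a4 and Cyp2a5 are shown because these genes were low together on the same arrays. They lie at chr7:26306942-26307191 (Cyp2a4) and chr7:26835089-26835338 (Cyp2a5), on the plus strand of the same build, with capitals at matches to TTGCNNAA, a C/EBP-type motif, and to TATAAA, the TATA box.
Cyp2a4: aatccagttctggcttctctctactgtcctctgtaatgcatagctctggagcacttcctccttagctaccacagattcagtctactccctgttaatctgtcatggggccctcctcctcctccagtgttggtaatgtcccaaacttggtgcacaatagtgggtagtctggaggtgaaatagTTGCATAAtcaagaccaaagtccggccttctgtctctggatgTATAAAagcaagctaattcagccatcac
Cyp2a5: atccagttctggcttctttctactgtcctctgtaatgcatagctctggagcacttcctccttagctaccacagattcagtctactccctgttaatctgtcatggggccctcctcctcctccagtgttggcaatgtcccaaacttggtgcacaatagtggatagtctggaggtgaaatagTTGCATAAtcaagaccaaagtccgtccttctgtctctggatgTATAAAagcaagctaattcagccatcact
The windows share 245 of 251 aligned positions (97.6%), and here too the binding of a probe to both transcripts is uncertain. The match TTGCATAA starts 70 bases before the annotated start of Cyp2a4 and 71 before that of Cyp2a5, and TATAAA starts 28 and 29 bases before it.

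RefSeq windows of 250 bases were found for 30 of the 37 members (32 windows), out of 32851 in the table, and 7 motifs were searched on both strands. TTGCNNAA was in 11 member windows (34.4%), against 9.56% of all windows, and TATAAA in 16 (50%), against 12.4%. Members with the first motif are Cyp2a4, Cyp2a5, Cyp2b9, Cyp2b10, Cyp2b13, Cyp2b23, Cyp2c37, Cyp2c67, Cyp2j9 and Cyp3a25. TTANGTAA, the motif of Dbp and its relatives, was in 1 window (Cyp2c38), against 2.06% of all, and GCGTG, the core of the aryl hydrocarbon receptor site, in 3, against 28.2%. TTCNNNGAA, the STAT5 motif, was in 0 member windows (7.02% of all), and so were the inverted repeat bound by FXR (0.00609% of all) and the palindromic HNF1 motif (0.00913% of all). A match is a run of letters and not a shown binding site, and the windows of close paralogs are not independent.

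Subfamily Cyp2c, a cluster on chromosome 19, gave 11 members, with a median change of -0.21 with obesity, -0.19 with FXR-K217Q and 0.09 with FXR-K217R, and 0 of 11 passed in any of these comparisons. Its enzymes oxidise drugs and fatty acids such as arachidonic acid, and Cyp2c70 makes the muricholic acids of mouse bile. Cyp2c70 measured 14.20, 14.34 and 14.24 in obese FXR-K217R livers, 14.91, 14.61 and 14.51 in obese FXR-WT livers, 14.51, 14.48 and 14.74 in lean FXR-K217Q livers, and 14.90 and 14.87 in lean FXR-WT livers. Neither mutant group overlapped with the FXR-WT group of the same body state. The change of Cyp2c70 was -0.41 (SE 0.13, unadjusted p = 0.00894, adjusted p = 0.993 by limma) with FXR-K217R and -0.31 (SE 0.14, unadjusted p = 0.0567, adjusted p = 0.701 by limma) with FXR-K217Q. Its unadjusted p was the smallest of the 37 members in each of these comparisons, it ranked 126 and 1249 among all genes, and its probe reached 82.3% of the highest raw intensity of an array.

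Cyp2c54 measured 6.62, 7.66 and 7.10 in obese FXR-K217R livers, 7.22, 7.19 and 7.22 in obese FXR-WT livers, 7.28, 8.09 and 8.07 in lean FXR-K217Q livers, and 7.98 and 8.45 in lean FXR-WT livers. The FXR-WT groups did not overlap, and the change with obesity was -1.01 (SE 0.31, adjusted p = 0.176 by limma). Cyp2c39, a retinoic acid hydroxylase, went the other way: it measured 6.53, 7.11 and 7.59 in obese FXR-K217R livers, 7.10, 7.61 and 7.26 in obese FXR-WT livers, 6.43, 6.46 and 6.84 in lean FXR-K217Q livers, and 6.30 and 6.56 in lean FXR-WT livers. Its change with obesity was 0.89 (SE 0.28, adjusted p = 0.178 by limma), and again the FXR-WT groups did not overlap. Neither gene passed in that comparison.

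The bright probes of Cyp2c37, Cyp2c50 and Cyp2c67 moved little. Cyp2c50 measured 13.08, 13.70 and 13.37 in obese FXR-K217R livers, 13.07, 13.43 and 13.10 in obese FXR-WT livers, 12.93, 13.38 and 13.11 in lean FXR-K217Q livers, and 13.32 and 13.62 in lean FXR-WT livers. Cyp2c37 measured 13.40, 13.90 and 13.54 in obese FXR-K217R livers, 13.30, 13.59 and 13.52 in obese FXR-WT livers, 13.23, 13.52 and 13.50 in lean FXR-K217Q livers, and 13.51 and 13.84 in lean FXR-WT livers. Cyp2c67 measured 13.32, 13.37 and 13.38 in obese FXR-K217R livers, 12.95, 13.48 and 13.34 in obese FXR-WT livers, 12.91, 13.10 and 13.03 in lean FXR-K217Q livers, and 13.17 and 13.22 in lean FXR-WT livers. Their FXR-K217Q changes were -0.34, -0.26 and -0.18, none of which passed. The second probe of Cyp2c67, with a mean level of 9.52, gave 0.27, while the other probes of Cyp2c37 and Cyp2c50 gave negative changes. Leaving out 1 array gave changes of -0.49 to -0.19 for Cyp2c50 and -0.43 to -0.09 for Cyp2c37, the ends of both ranges being those without lean FXR-WT replicate 1 and without replicate 2, and only Cyp2c67 had lean groups that did not overlap.

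Cyp2c55, an arachidonic acid epoxygenase induced through CAR and PXR, was the least steady of its subfamily. It measured 8.66, 7.35 and 8.37 in obese FXR-K217R livers, 6.82, 7.28 and 7.87 in obese FXR-WT livers, 10.12, 10.38 and 5.80 in lean FXR-K217Q livers, and 8.73 and 8.45 in lean FXR-WT livers. Lean FXR-K217Q replicates 1 and 2 were the highest of all 11 arrays and replicate 3 was the lowest, so the change with FXR-K217Q was 0.18 (SE 1.09). The remaining members, Cyp2c29, Cyp2c38, Cyp2c44 (now Cyp2c23) and Cyp2c65, had group means within 1 of each other, with ranges over the arrays of 0.82 to 1.96 and no call.

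Subfamily Cyp2d, on chromosome 15, gave 7 members with median changes of 0.18 with obesity, 0.09 with FXR-K217Q and 0.08 with FXR-K217R, and 0 of 7 passed. Cyp2d9, a male-typical testosterone hydroxylase, measured 14.84, 14.83 and 14.86 in obese FXR-K217R livers, 14.60, 14.83 and 14.84 in obese FXR-WT livers, 14.76, 14.95 and 14.44 in lean FXR-K217Q livers, and 14.60 and 14.88 in lean FXR-WT livers. All groups overlapped, and its change with obesity was 0.01 (SE 0.16), but its probe reached 83.3% of the highest raw intensity of an array, so a change could be compressed. Cyp2d12 had the widest range, with 7.18, 7.65 and 7.99 in obese FXR-K217R livers, 5.14, 7.54 and 7.22 in obese FXR-WT livers, 7.47, 6.66 and 6.02 in lean FXR-K217Q livers, and 6.13 and 5.85 in lean FXR-WT livers. Obese FXR-WT replicate 1 was the single array that did not detect it, and the change with FXR-K217R was 0.97 (SE 0.56, adjusted p = 0.993 by limma) with that array and 0.23 without it. Cyp2d40 averaged 11.67 ± 0.39 in obese FXR-K217R, 11.44 ± 0.27 in obese FXR-WT, 11.11 ± 0.14 in lean FXR-K217Q (SD, n = 3 each) and 11.01 ± 0.12 in lean FXR-WT livers (SD, n = 2), and no comparison passed for it. Cyp2d10, Cyp2d13, Cyp2d22 and Cyp2d26 had ranges of 0.41 to 0.93.

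Cyp2e1, which oxidises ethanol and acetone and is concentrated around the central vein, was the steadiest member. It measured 15.06, 14.87 and 14.91 in obese FXR-K217R livers, 15.06, 14.89 and 14.92 in obese FXR-WT livers, 15.02, 14.84 and 14.92 in lean FXR-K217Q livers, and 14.94 and 14.84 in lean FXR-WT livers. Its probe reached 87.2% of the highest raw intensity of an array, so a change at the top of the scale could be compressed. Cyp2f2, concentrated around the portal vein, measured 14.32, 14.18 and 14.18 in obese FXR-K217R livers, 13.84, 13.97 and 14.40 in obese FXR-WT livers, 14.34, 14.45 and 13.72 in lean FXR-K217Q livers, and 13.94 and 14.17 in lean FXR-WT livers. The groups of each comparison overlapped for both, and their changes with obesity were 0.07 (Cyp2e1) and 0.01 (Cyp2f2).

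Subfamily Cyp3a, on chromosome 5, holds the main drug-oxidising enzymes induced through PXR. Cyp3a11, the best known of them, measured 14.22, 14.53 and 14.44 in obese FXR-K217R livers, 14.32, 14.16 and 14.47 in obese FXR-WT livers, 14.93, 15.11 and 13.90 in lean FXR-K217Q livers, and 14.46 and 14.41 in lean FXR-WT livers. Its lean FXR-K217Q arrays were the 2 highest and the lowest of all 11, with a change of 0.21 (SE 0.29), and its probe reached 93.1% of the highest raw intensity of an array. Cyp3a13 measured 11.95, 12.66 and 12.47 in obese FXR-K217R livers, 13.28, 12.81 and 12.55 in obese FXR-WT livers, 12.80, 12.90 and 13.57 in lean FXR-K217Q livers, and 13.33 and 13.35 in lean FXR-WT livers. The obese FXR-WT arrays were all below the lean FXR-WT ones, and its changes were -0.52 with FXR-K217R (SE 0.26, adjusted p = 0.993 by limma), -0.25 with FXR-K217Q and -0.46 with obesity. Its 3 probes gave the same sign in each of these comparisons. Cyp3a25 averaged 12.67 ± 0.20, 12.67 ± 0.26, 13.16 ± 0.46 (SD, n = 3 each) and 12.83 ± 0.01 (SD, n = 2) in obese FXR-K217R, obese FXR-WT, lean FXR-K217Q and lean FXR-WT livers, and did not pass.

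Family 1 gave Cyp1a2, the caffeine-oxidising enzyme of chromosome 9, and Cyp1b1, on chromosome 17, both regulated by the aryl hydrocarbon receptor. Cyp1a2 measured 13.32, 12.11 and 12.44 in obese FXR-K217R livers, 11.10, 12.26 and 12.60 in obese FXR-WT livers, 13.19, 13.06 and 12.05 in lean FXR-K217Q livers, and 13.02 and 12.96 in lean FXR-WT livers. The obese FXR-WT arrays all lay below the lean FXR-WT ones, and the change was -1.0 (SE 0.48, adjusted p = 0.406 by limma), with -1.03 on its second probe. Cyp1b1 went the other way, at 6.51, 6.24 and 6.12 in obese FXR-K217R livers, 6.32, 6.92 and 6.75 in obese FXR-WT livers, 6.51, 5.93 and 5.75 in lean FXR-K217Q livers, and 5.87 and 5.70 in lean FXR-WT livers. Its FXR-WT groups did not overlap, with a change with obesity of 0.88 (SE 0.24, adjusted p = 0.131 by limma). Cyp1b1 is also known in cells other than hepatocytes, and 7 of 8 stellate cell and fibroblast markers had positive changes with obesity, with a median of 0.59. Of these 8 markers, 0 passed 5% FDR. Their summed intensity was 12120 to 14781 in obese FXR-WT and 9090 to 12340 in lean FXR-WT livers, and these ranges overlap. In whole liver, more cells of a type and more RNA per cell cannot be told apart, and the part of these cells in Cyp1b1 was not tested.

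The remaining subfamilies had 1 member each. Cyp2u1, a fatty acid hydroxylase on chromosome 3, measured 6.19, 6.43 and 6.34 in obese FXR-K217R livers, 5.42, 6.12 and 5.89 in obese FXR-WT livers, 6.76, 6.90 and 6.04 in lean FXR-K217Q livers, and 6.50 and 6.40 in lean FXR-WT livers. Obese FXR-WT arrays lay below those of both FXR-K217R and lean FXR-WT livers, with changes of 0.51 for FXR-K217R (SE 0.23, adjusted p = 0.993 by limma) and -0.63 for obesity (SE 0.26, adjusted p = 0.319 by limma). Its second probe gave -0.06 and -0.17, and neither probe passed. Cyp2g1 measured 6.10, 6.49 and 5.95 in obese FXR-K217R livers, 5.25, 6.35 and 7.19 in obese FXR-WT livers, 7.17, 7.69 and 6.33 in lean FXR-K217Q livers, and 6.78 and 6.94 in lean FXR-WT livers. Its groups overlapped in each comparison made here.

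Cyp2j9, on chromosome 4, measured 7.74, 6.80 and 6.89 in obese FXR-K217R livers, 7.03, 6.84 and 7.24 in obese FXR-WT livers, 7.75, 7.76 and 6.52 in lean FXR-K217Q livers, and 7.32 and 7.49 in lean FXR-WT livers. Cyp2s1, on chromosome 7, measured 5.24, 5.32 and 5.90 in obese FXR-K217R livers, 4.80, 5.73 and 5.61 in obese FXR-WT livers, 5.09, 4.96 and 4.71 in lean FXR-K217Q livers, and 5.42 and 4.74 in lean FXR-WT livers. It was detected on 3, 2, 0 and 1 arrays of these groups, so its values lie near the limit of detection. Neither gene passed in any comparison.

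The regulators of these enzymes were read beside them. Of 13 genes listed, 11 were tested, with 0 calls in each direction for FXR-K217Q, FXR-K217R and obesity, and Ahr itself was not tested because too few arrays detected it. CAR (Nr1i3) measured 11.16, 11.45 and 11.46 in obese FXR-K217R livers, 11, 11.28 and 11.40 in obese FXR-WT livers, 10.72, 10.97 and 11.34 in lean FXR-K217Q livers, and 10.90 and 10.89 in lean FXR-WT livers. PXR (Nr1i2) measured 10.03, 10.35 and 10.55 in obese FXR-K217R livers, 10.89, 10.28 and 10.09 in obese FXR-WT livers, 9.97, 10.43 and 9.56 in lean FXR-K217Q livers, and 10.03 and 9.83 in lean FXR-WT livers. Their changes with obesity were 0.33 (SE 0.19, adjusted p = 0.494 by limma) and 0.49 (SE 0.28, adjusted p = 0.495 by limma). Cebpa, the hepatocyte factor C/EBP-alpha, had the smallest p of the list with obesity, at a change of -0.65 (SE 0.15, adjusted p = 0.0794 by limma).

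Electron supply and haem synthesis showed no call in 14 tested genes in the same comparisons. Por, the reductase that feeds these enzymes, measured 11.65, 12.22 and 11.98 in obese FXR-K217R livers, 12.46, 12.31 and 12.17 in obese FXR-WT livers, 11.97, 12.32 and 11.61 in lean FXR-K217Q livers, and 12.07 and 11.94 in lean FXR-WT livers. Fech, which inserts iron to form haem, had the smallest p with FXR-K217Q (change 0.63, unadjusted p = 0.00412, adjusted p = 0.456 by limma). Its levels were 8.42, 8.77 and 8.38 in lean FXR-K217Q livers and 7.79 and 8.00 in lean FXR-WT livers, which do not overlap.

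Other genes regulated through CAR and PXR did not move as one. Of 16 tested, 8 had positive and 8 negative changes with obesity, and 1 fell: Ces6, a carboxylesterase, at 4.78, 5.36 and 4.89 in obese FXR-WT livers and 5.88 and 6.35 in lean FXR-WT livers (change -1.10, SE 0.21, adjusted p = 0.0369 by limma). Ces6 was detected on 1 of 3 obese FXR-WT and 2 of 2 lean FXR-WT arrays, so the size of its fall rests on values near or below the limit of detection. Slco1a4, an organic anion transporter, did not pass at -1.29 (SE 0.40, adjusted p = 0.179 by limma). The 7 members listed as inducible through these receptors were Cyp2b10, Cyp2c29, Cyp2c37, Cyp2c55, Cyp3a11, Cyp3a13 and Cyp3a25. These 7 had negative changes with obesity, as did 18 of all 37 members and 7755 of 15469 genes tested. Their median change was -0.27, and 0 of 7 passed. With FXR-K217Q the 16 genes had a median change of 0.29 and 11 positive changes, and the 7 members a median of -0.25 and 3 positive changes. Of the genes outside the family that the aryl hydrocarbon receptor regulates, 3 were tested and 0 passed.

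Sex-biased genes were set beside Cyp2b9, Cyp2b13 and Cyp2a4, whose changes with obesity were 3.86, 2.74 and 0.82. Cyp2d9, the listed member that is normally higher in males, had a change of 0.01. Of 12 tested genes outside the family that are normally higher in males, 10 had negative changes with obesity, with a median of -0.66 against -0.00 over all genes, and 2 fell. Not all 12 moved: Gstp1 (-0.00), Mup3 (-0.02), Cyp4a12a (0.01) and Mup1 (0.12) were nearly unchanged. Susd4 measured 5.19, 5.29 and 5.66 in obese FXR-WT livers and 6.90 and 7.14 in lean FXR-WT livers (change -1.63, SE 0.17, adjusted p = 0.00151 by limma). Susd4 was detected on 2 of 3 obese FXR-WT and 2 of 2 lean FXR-WT arrays, so the size of its fall rests in part on values near the limit of detection. C6, a complement protein, measured 11.48, 11.69 and 11.69 in obese FXR-WT livers and 12.34 and 12.34 in lean FXR-WT livers (change -0.72, SE 0.12, adjusted p = 0.018 by limma). Cyp7b1, an oxysterol hydroxylase, had a change of -1.52 (SE 0.41, adjusted p = 0.129 by limma) with obesity, which did not pass. These non-family genes, like the other lists, were chosen with earlier results known.

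Only 3 of the female-biased genes listed outside the family were tested. Acot3, a peroxisomal thioesterase that PPAR-alpha also induces, rose with obesity, at 10.03, 10.09 and 10.52 in obese FXR-WT livers and 7.28 and 6.76 in lean FXR-WT livers (change 3.19, SE 0.39, adjusted p = 0.00372 by limma). A1bg had the opposite sign, at 5.29, 5.96 and 5.37 in obese FXR-WT livers and 6.44 and 6.60 in lean FXR-WT livers (change -0.98, SE 0.28, adjusted p = 0.146 by limma; detected on 3 of 3 and 2 of 2 of these arrays), and Cux2 had 0.31. Genes of the pericentral and periportal zones had median changes with obesity of -0.05 (9 tested) and -0.36 (10 tested), with 0 calls in either. The added comparison, which averages both obese and both lean groups, called more of the listed genes. It called 2 of 10 periportal genes, 1 of 11 regulators and 2 of 16 genes regulated through CAR and PXR. Also called were 5 of 12 genes normally higher in males, and all of these calls were lower. Of the female-biased genes outside the family it called 1 of 3, which was higher, and it called 0 of 9 pericentral genes. Among the cell type lists, 4 of 10 neutrophil markers and 1 of 8 stellate cell and fibroblast markers passed, all higher. Over all genes, 4.14% passed in either direction.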

How the data were processed

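Liver RNA was hybridised to Illumina bead arrays, 11 in all. Per the file headers, the deposited table gives for each of 45281 probes a mean bead intensity, a detection p-value, a bead standard error in intensity units and a bead count. The authors also deposited normalized log2 values, and limma 3.12.3 is named in the submitters' processing notes. No column was left without a sample.

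Here intensities were corrected and normalized with neqc in limma 3.58.1 (R 4.3.3), with an offset of 16, taking the background from the detection p-values because no control probes were used. The result differed from the authors' deposited log2 values by at most 0.0271. The 21485 probes detected (p-value under 0.05) on 2 arrays or more were kept, and the brightest probe stood for each gene (15469 genes). Between 18263 and 19500 probes were detected per array. The number of arrays limits the precision, and no pair of arrays correlated above 0.992.

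One linear model with 4 group means was fitted to all 11 arrays (lmFit and eBayes). Contrasts were tested two-sided, and p-values were adjusted by the Benjamini-Hochberg method over all genes, with a threshold of 5%. An interval is the 95% confidence interval of a change. On simulated data with 200 changed genes among 15469, a change of 1 was recovered in 63% of cases for FXR-K217Q, 77% for FXR-K217R and 63% for obesity. A change of 2 was recovered in 93%, 98% and 99%. False calls numbered 11, 6 and 8 in these runs. Noise was drawn independently on each array at each gene's own SD, and the changed genes were drawn from all genes. The members varied more within groups (median SD 0.35, against 0.21 for all genes). The shares recovered therefore need not hold for the members.

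Values on every array are given for members past 5% FDR, for those with the smallest p until 6 were reached in a comparison, for the brightest member of each subfamily, and for 7 members listed by name. Cyp2a4, Cyp2b23, Cyp2c55, Dbp and Arntl were added after their values were seen. Members, gene lists and the arrays said to stand apart were chosen with earlier results of these data known. Promoter windows are those of RefSeq, aligned with Biopython 1.88. The alternatives were other background corrections, normalizations, filters and probe rules, a replicate block, fewer groups, and leaving out arrays. Probe sequences and array positions were not used here.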

Additional observations from a re-analysis of the deposited data

How the results depend on the processing

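Leaving out 1 array at a time, genes past 5% FDR numbered 36 to 283 for obesity (185 with all arrays), 3 to 10 for FXR-K217R (6), 0 to 1 for FXR-K217Q (0), 161 to 950 for the obese groups averaged (641), 76 to 292 for any difference among the 4 groups (202) and 0 for the interaction (0). Members past 5% FDR numbered 0 to 3 for obesity (1), 1 to 7 for the obese groups averaged (6) and 0 to 3 for any difference (1). Without both arrays that stood apart, obesity called 467 genes and 4 members (Cyp1b1, Cyp2b9, Cyp2b13 and Cyp2r1), the obese groups averaged 1016 genes and 10 members, any difference 406 genes and 4 members, and FXR-K217Q 2 genes. Deviations from the group mean had correlations of -0.39 to 0.23 between same-numbered arrays and -0.23 to 0.35 between differently numbered ones. Such deviations cancel out within each small group, so these correlations are not independent. They cannot decide whether same-numbered arrays share more than a number. With the replicate block, obesity called 102 genes and 0 members, FXR-K217R 3 genes, the obese groups averaged 413 genes and 2 members (Cyp2c54 and Cyp2r1), and any difference 93 genes and 0 members. With only the 2 groups compared in the fit, obesity called 110 genes and 0 members and FXR-K217R 2 genes. With only probes detected on all 11 arrays, obesity and any difference called 0 members, since Cyp2r1 was not tested, and FXR-K217R called 2 genes. With no background correction obesity called 0 members. With normexp and an offset of 50, any difference called 0 members and the interaction 1 gene. With a mean trend in the variance, any difference called 2 members (Cyp2a12 and Cyp2r1) and the interaction 1 gene. With no filter, the obese groups averaged called 2 members (Cyp2a12 and Cyp2r1). Where a setting does not itself remove arrays or genes, the cause was not tested. None of the 38 changes of named members turned its sign, but 14 moved by over 1.5 times when 1 array was left out. The median change of the members, near 0, did turn sign in 4 of 5 comparisons, with ranges over the alternatives of -0.14 to 0.14 for FXR-K217Q, -0.21 to 0.04 for obesity, -0.07 to 0.09 for the obese groups averaged and -0.13 to 0.29 for the interaction, against 0.03 to 0.17 for FXR-K217R. Signal over background limits Cyp2c65, Cyp2r1 and Cyp2s1, which lie near the limit of detection, and Cyp2b13 on the arrays that did not detect it. Probes of a gene gave opposite signs in 5 of 11 genes with several probes for FXR-K217Q, 4 for FXR-K217R and 3 for obesity.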
